A study of Mus musculus with 246 samples.

Results

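The 10 genes described here are products of neuronal activity: the NR4A nuclear receptor genes Nr4a1, Nr4a2 and Nr4a3, the transcription factor genes Npas4 and Crem, the synaptic genes Arc and Homer1, and the signalling genes Tnfrsf12a, Ptgs2 and Rgs2. Their identifiers in the table are ENSMUSG00000023034.8 (Nr4a1), ENSMUSG00000026826.14 (Nr4a2), ENSMUSG00000028341.10 (Nr4a3), ENSMUSG00000045903.10 (Npas4), ENSMUSG00000063889.17 (Crem), ENSMUSG00000022602.15 (Arc), ENSMUSG00000007617.19 (Homer1), ENSMUSG00000023905.16 (Tnfrsf12a), ENSMUSG00000032487.9 (Ptgs2) and ENSMUSG00000026360.10 (Rgs2). They were chosen by name, with earlier results of these data known, from the 56691 genes of a table of estimated counts per gene. RNA was sequenced from tissue punches of 6 brain regions of adult male mice of the outbred CD1 strain: the medial prefrontal cortex (mPFC), the anterior cingulate cortex (ACC), the nucleus accumbens (Nacc), the basolateral amygdala (BLA), the dorsomedial thalamus (DMT) and the ventral hippocampus (vHipp). Each of 41 mice gave 1 library per region. Ctrl_Vehicle mice were raised with standard nesting material by dams injected with an empty phospholipid gel, ELA_Vehicle mice were raised with limited bedding and nesting (early life adversity, ELA) by dams given the same empty gel, and ELA_SAFit2 mice were raised under the same adversity by dams given the gel loaded with SAFit2, an inhibitor of the stress-related co-chaperone FKBP51 that reaches pups in the milk. None of the groups combined standard rearing with SAFit2, and the drug was given to the dam, not to the pup. As adults, 21 mice were killed without an encounter (NoInteraction, 7 per group) and 20 met an unfamiliar mouse for 10 min (SocialInteraction, 6 Ctrl_Vehicle, 7 ELA_Vehicle and 7 ELA_SAFit2). The question put to the 10 genes was in which regions, and in which of the 3 groups, their level differed between mice with and without the interaction.

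Neurons that fire strongly transcribe a set of genes within minutes, through calcium signals that reach the transcription factors CREB and SRF. The first products are mostly transcription factors, and later ones act at synapses or are secreted. Nr4a1, Nr4a2 and Nr4a3 encode orphan nuclear receptors that bind DNA without a classical ligand. Npas4 encodes a neuron-specific factor induced by calcium entry that acts on inhibitory synapses, and Crem encodes activators and repressors that bind the same DNA site as CREB, among them the inducible repressor ICER. Arc protein removes AMPA receptors from synapses, and Homer1 encodes scaffold proteins that tie metabotropic glutamate receptors to the postsynaptic density, as well as Homer1a, a short activity-induced form that loosens these ties. Tnfrsf12a encodes Fn14, the receptor of the cytokine TWEAK, Ptgs2 encodes cyclooxygenase-2, which makes prostaglandin precursors, and Rgs2 encodes a protein that ends Gq signalling. Counts were given per gene, so Homer1a and the long Homer1 forms, and ICER and the other Crem forms, are summed in each value below.

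The sequence just before the transcription start is shown for 4 of the genes, as 3 genes that rose (Homer1, Rgs2 and Tnfrsf12a) and 1 that did not pass (Nr4a1). CREB and CREM bind the cAMP response element, whose half-site reads TGACG, or CGTCA on the other strand. Promoter sequences came from RefSeq (mouse build GRCm38.p6, which is not the GRCm39 build named for the counts) and were used for 8 of the 10 genes, with 9 starts. None was used for Arc or Crem. Members on the chromosome of Crem were filtered out, so whether RefSeq held a stretch for Crem is not shown here. The set of all stretches used below was not filtered in this way. Each line gives the 250 bases before the start, 5′ to 3′ on the strand of the gene, with half-sites in capitals.
Homer1 (chr13:93303507-93303756, plus strand): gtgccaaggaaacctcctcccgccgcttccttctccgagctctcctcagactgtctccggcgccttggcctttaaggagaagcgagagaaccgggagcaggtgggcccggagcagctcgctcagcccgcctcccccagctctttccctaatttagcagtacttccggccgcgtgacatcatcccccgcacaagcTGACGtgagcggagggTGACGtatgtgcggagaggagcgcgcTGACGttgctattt
Nr4a1 (chr15:101266596-101266845, plus strand): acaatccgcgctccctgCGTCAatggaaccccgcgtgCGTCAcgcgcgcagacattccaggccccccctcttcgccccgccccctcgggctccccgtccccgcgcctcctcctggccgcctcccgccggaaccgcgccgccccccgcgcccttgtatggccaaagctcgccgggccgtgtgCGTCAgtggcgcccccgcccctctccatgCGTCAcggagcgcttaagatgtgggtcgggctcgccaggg
Rgs2 (chr1:144004150-144004399, minus strand): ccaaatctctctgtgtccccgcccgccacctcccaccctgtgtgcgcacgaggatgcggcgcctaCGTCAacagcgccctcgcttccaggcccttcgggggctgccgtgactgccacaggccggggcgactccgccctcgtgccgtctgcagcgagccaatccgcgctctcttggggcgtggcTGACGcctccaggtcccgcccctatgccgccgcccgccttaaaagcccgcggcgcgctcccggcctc
Tnfrsf12a (chr17:23677450-23677699, minus strand): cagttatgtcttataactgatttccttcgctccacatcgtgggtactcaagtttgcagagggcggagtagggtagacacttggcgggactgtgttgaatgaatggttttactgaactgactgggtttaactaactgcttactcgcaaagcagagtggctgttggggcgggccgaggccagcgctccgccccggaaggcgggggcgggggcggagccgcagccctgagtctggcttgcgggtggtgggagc
The Homer1 stretch held 3 half-sites, the last of them 14 to 10 bases before the start, the Nr4a1 stretch held 4, the Rgs2 stretch held 2 and the Tnfrsf12a stretch held 0. Nr4a2 and Nr4a3 held 4 each and Npas4 held 2, while Ptgs2 and the second Homer1 start held 0. Thus 6 of the 9 stretches held at least 1 half-site. So did 24 of 40 stretches from a list of other activity genes, described further below. Among all 32851 promoter stretches of the same length, 17.8% held at least 1, 3.9% at least 2, 0.688% at least 3 and 0.137% at least 4. The full element TGACGTCA, which contains both half-sites and was found in 1.55% of all stretches, was in none of the 9, nor was the NR4A monomer site AAAGGTCA (TGACCTTT on the other strand), found in 1.34%. A match describes the letters only, and an absent match says nothing of a factor outside this window.

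Libraries held 20804247 to 43351424 assigned fragments, and levels are given as CPM, a library's counts scaled to a common total. Each library was compared with the profile of every mouse built from the other regions, over the 60 genes whose differences between mice were most alike across those regions. In 5 regions, every library matched its labelled mouse best. In the Nacc, 12 of the 41 libraries (6 NoInteraction, 6 SocialInteraction) matched another mouse, with correlations of -0.14 to 0.33 with the labelled mouse and 0.48 to 0.83 with the best match. The 12 best-matching mice were the same 12 animals, each matched once, and 8 of the 12 libraries matched a mouse of the other interaction state. The Nacc libraries were kept under their labels, and the members' pooled differences in the Nacc are given with and without these 12. The other Nacc values below include them. Mouse numbers fall into 14 runs of 8, and each run held mice of a single interaction state (7 runs each). The labels do not say what a run is, so interaction and whatever the runs share cannot be told apart. The median of summed markers was highest in the region they name for striatum (978 to 3713 CPM in the Nacc), thalamus (1424 to 2413 CPM in the DMT) and hippocampus (692 to 1026 CPM in the vHipp). The amygdala list, which shares Slc17a7 and Neurod2 with cortex, summed to 422 to 1392 CPM in the BLA and to more in the mPFC, so it did not mark the BLA, and striatal markers ran from 409 to 2871 CPM in BLA punches.

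Pooled over the 3 groups, 4 of the 10 genes rose with social interaction in at least 1 region. Homer1, Crem, Tnfrsf12a and Rgs2 rose in both cortical regions (mPFC and ACC), Homer1 and Crem also rose in the BLA, and Tnfrsf12a and Crem also rose in the DMT (edgeR quasi-likelihood test, Benjamini-Hochberg adjusted p under 0.05 over all genes tested in a region). No member passed in the Nacc or in the vHipp by edgeR, and 0 and 1 passed by DESeq2 (0% and 2.22% of all genes). Of the 10, 0 and 4 had an unadjusted p under 0.05 by edgeR, a limit for which the share of all genes is not given here. In all, 12 of 60 tests of a gene in a region passed, every one of them higher after interaction, and 51 of 60 estimates were above 0. The share of all tested genes that passed in either direction was 7.4% for the mPFC (4.81% higher), 4.15% for the ACC (2.42% higher), 0% for the Nacc, 1.49% for the BLA (0.825% higher), 1.6% for the DMT (1.04% higher) and 1.21% for the vHipp (0.821% higher). Beside these, the members that rose numbered 4 of 10 for each cortical region and 2 of 10 for the BLA as well as the DMT. The members were chosen with earlier results of these data known, so these counts describe them and are no independent test of an excess. The median of all tested genes was 0 on the log2 scale in each region. In bulk tissue, fewer cells of a type and less RNA per cell cannot be told apart.

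**Figure D1:**
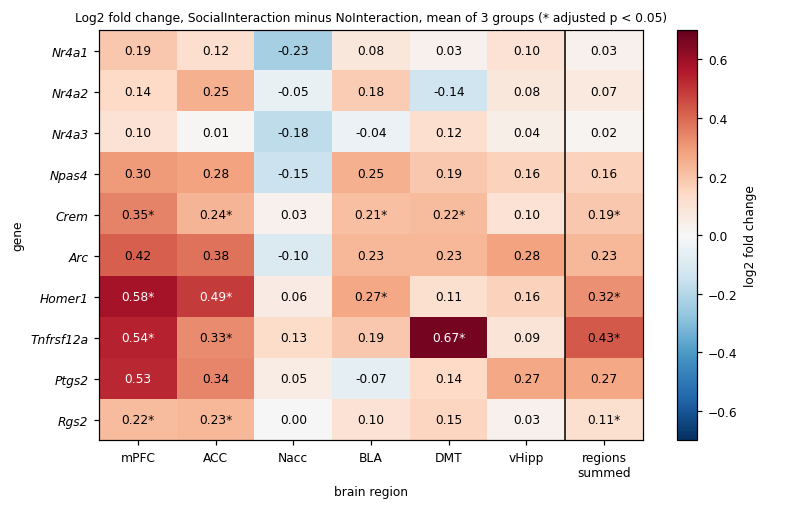
Log2 fold change of each gene (rows) between SocialInteraction and NoInteraction mice, as the mean of the 3 within-group differences, in each region (columns) and with the 6 regions of a mouse summed (right of the line); red is higher and blue lower after interaction, and a star marks an adjusted p under 0.05. The stars sit on Homer1, Crem, Tnfrsf12a and Rgs2, with the highest values for Tnfrsf12a in the DMT (0.67) and Homer1 in the mPFC (0.58).

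Among the NR4A receptor genes, none passed the pooled test in any region by edgeR or by DESeq2, and 1 of their 18 tests had an unadjusted p under 0.05 (Nr4a2 in the ACC). Nr4a1 in the mPFC ran from 43.8 over a median of 72.1 to 173 CPM in the 21 NoInteraction mice and from 43.4 over 84.8 to 155 CPM in the 20 SocialInteraction mice. The ranges overlapped almost fully, and the difference was 0.19 ± 0.17 (log2, SE; adjusted p = 0.61 by edgeR's quasi-likelihood test). Nr4a2, best known as a factor of midbrain dopamine neurons, came nearest to the threshold in the ACC, where it ran from 4.75 over 9.63 to 13.8 CPM without interaction and from 7.36 over 11.5 to 18.3 CPM after it. Of the 20 SocialInteraction mice, 5 lay above every NoInteraction mouse, and the difference was 0.25 ± 0.10 (adjusted p = 0.17 by edgeR). The estimates of Nr4a3 lay between -0.18 ± 0.21 in the Nacc, which turned to 0.07 without the 12 mismatched libraries, and 0.12 ± 0.12 in the DMT. In the vHipp, where Nr4a3 was most abundant, it ran from 84.4 over 121 to 172 CPM without interaction and from 87.5 over 122 to 157 CPM after it.

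The 2 other transcription factor genes had similar estimates in the mPFC but a different spread between mice. Npas4 in the mPFC ran from 10.7 over a median of 26.5 to 98.4 CPM without interaction and from 12.1 over 55.3 to 92.7 CPM after it. The median was higher after interaction in each of the 3 groups and 16 of 20 SocialInteraction mice lay above the NoInteraction median, but neither state held a mouse beyond the other's upper end except 2 NoInteraction mice, and the difference was 0.30 ± 0.29 (adjusted p = 0.64 by edgeR). The smallest p for Npas4 was in the BLA, at 0.25 ± 0.12 (adjusted p = 0.29). Crem, in contrast, was low and even between mice. In the mPFC it ran from 9.44 over 11.4 to 14.3 CPM without interaction and from 10.3 over 14.9 to 17 CPM after it. All 21 NoInteraction mice lay below the SocialInteraction median and 13 of 20 SocialInteraction mice lay above every NoInteraction mouse. The rise was 0.35 ± 0.05 on the log2 scale, or 27.1% (adjusted p = 4.8e-06 by edgeR).

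Crem rose in 4 regions, more than any other member. In the ACC it ran from 10.6 over 12.5 to 14.6 CPM without interaction and from 12.1 over 14.9 to 16.1 CPM after it, again with 13 of 20 SocialInteraction mice above every NoInteraction mouse (0.24 ± 0.04, adjusted p = 0.00031 by edgeR). The rise was 0.21 ± 0.05 in the BLA (adjusted p = 0.011), where all 20 SocialInteraction mice lay above the NoInteraction median, and 0.22 ± 0.05 in the DMT (adjusted p = 0.0077). In the vHipp the estimate was 0.10 ± 0.04 (adjusted p = 0.29). These are small differences, of 15.8% in the BLA and 16.7% in the DMT, set against a spread of 0.13 to 0.15 (SD of log2 CPM within groups) in the 5 regions other than the Nacc.

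The synaptic genes Arc and Homer1 both had higher estimates outside the Nacc, but only Homer1 passed. Homer1 in the mPFC ran from 150 over a median of 175 to 258 CPM in the 21 NoInteraction mice and from 194 over 270 to 331 CPM in the 20 SocialInteraction mice. All 20 SocialInteraction mice lay above the NoInteraction median, 12 lay above every NoInteraction mouse, and 17 of 21 NoInteraction mice lay below every SocialInteraction mouse. The rise was 0.58 ± 0.06 on the log2 scale, or 49.3% (adjusted p = 2.3e-07 by edgeR). In the ACC, Homer1 ran from 132 over 187 to 268 CPM without interaction and from 195 over 254 to 438 CPM after it, a rise of 0.49 ± 0.08 (40.6%, adjusted p = 0.00016). In the BLA it ran from 119 over 137 to 192 CPM and from 134 over 163 to 263 CPM (0.27 ± 0.06, adjusted p = 0.025). The BLA call was kept in 39 of 41 fits that left out 1 mouse. It was lost by a small margin without Ctrl_Vehicle mouse 57 (0.25, adjusted p = 0.053) or ELA_SAFit2 mouse 63 (0.24, adjusted p = 0.052), both SocialInteraction mice.

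Homer1 was 0.16 ± 0.05 higher in the vHipp (adjusted p = 0.079 by edgeR), which passed by DESeq2 (adjusted p = 0.0396), and when NoInteraction Ctrl_Vehicle mouse 1 was left out (0.042). Arc had a larger estimate than Crem in the mPFC but a spread that was far wider. In the mPFC it ran from 22.9 over 103.4 to 299 CPM without interaction and from 34.9 over 139 to 292 CPM after it. The 2 states covered nearly the same range, and the difference was 0.42 ± 0.30 (adjusted p = 0.49). In the vHipp, where Arc was steadier, it ran from 31.8 over 53.3 to 91.3 CPM and from 34.7 over 67.8 to 104 CPM, with 18 of 20 SocialInteraction mice above the NoInteraction median (0.28 ± 0.10, adjusted p = 0.16).

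**Figure D2:**
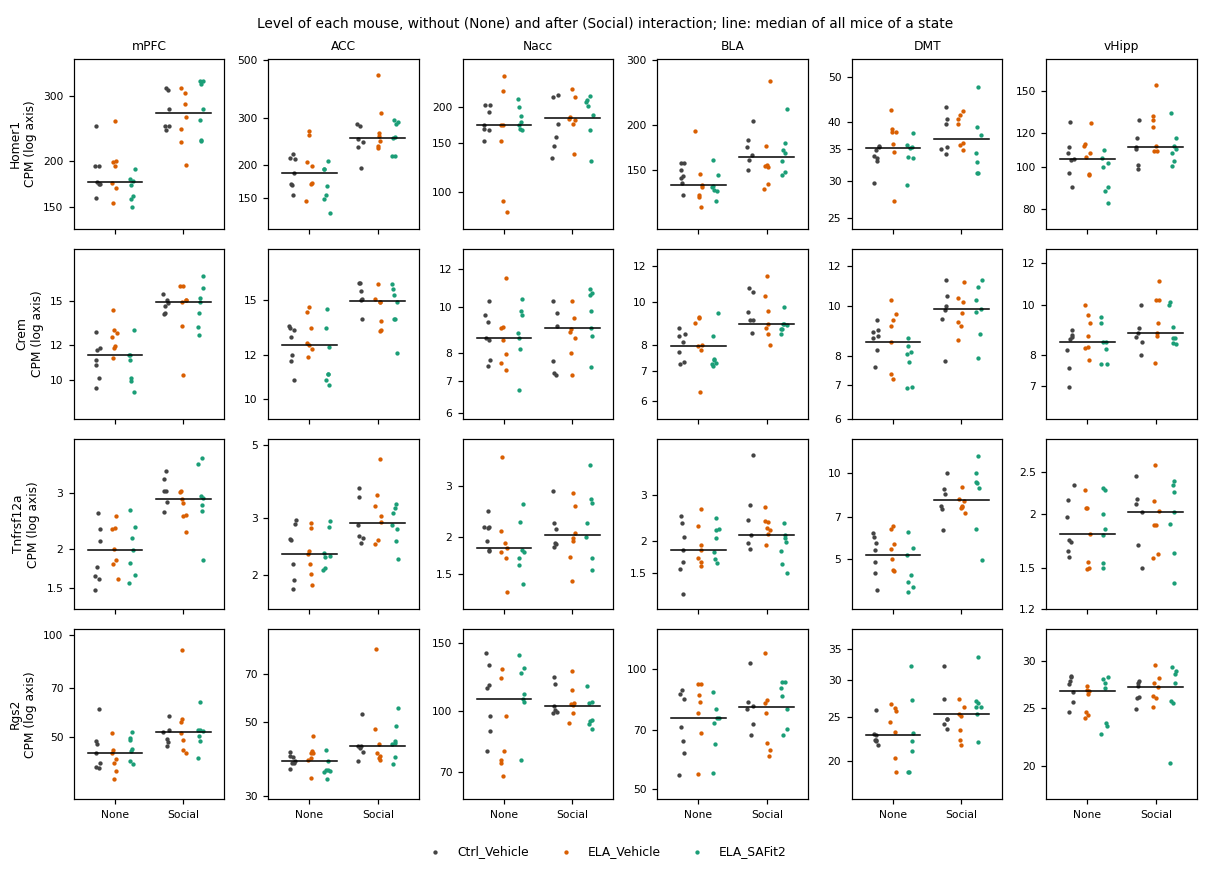
Level in CPM (log axis) of Homer1, Crem, Tnfrsf12a and Rgs2 (rows) in each region (columns), with 1 point per mouse, coloured by group, NoInteraction mice on the left and SocialInteraction mice on the right, and a line at the median of each state. In the mPFC, 12 of 20 SocialInteraction mice lie above every NoInteraction mouse for Homer1, 13 for Crem and 14 for Tnfrsf12a. Of 21 NoInteraction mice there, 17, 5 and 9 lie below every SocialInteraction mouse. The mPFC medians of Homer1 are 175 and 270 CPM, whereas in the Nacc the medians lie close together for each gene.

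Of the signalling genes, Tnfrsf12a gave the largest fold of any member. In the DMT it ran from 3.83 over a median of 5.17 to 6.49 CPM without interaction and from 4.96 over 8.02 to 11.4 CPM after it. Of the 20 SocialInteraction mice, 17 lay above every NoInteraction mouse, and the rise was 0.67 ± 0.08 on the log2 scale, or 59.4% (adjusted p = 2.6e-06 by edgeR). In the same DMT libraries the median log2 difference between states was 1.08 over 4 choroid plexus markers (summed 5.02 to 1079 CPM without and 6.3 to 1407 CPM after interaction) and 0.75 over 3 inhibitory neuron markers (11.4 to 180 and 17.4 to 307 CPM), with none of these markers past the threshold. Across mice Tnfrsf12a had r = -0.13 (permutation p = 0.41, adjusted 0.64; rho = -0.18) with the first list and r = 0.24 (permutation p = 0.13, adjusted 0.28; rho = 0.19) with the second, and their part in its rise was not tested. In the mPFC the gene ran from 1.48 over 1.99 to 2.66 CPM and from 1.84 over 2.88 to 3.88 CPM, with 14 of 20 SocialInteraction mice above every NoInteraction mouse (0.54 ± 0.08, 45.3%, adjusted p = 3.4e-05). In the ACC it ran from 1.81 over 2.33 to 2.96 CPM and from 2.24 over 2.89 to 4.55 CPM (0.33 ± 0.08, 25.6%, adjusted p = 0.0084). The BLA estimate of 0.19 ± 0.09 did not pass (adjusted p = 0.31).

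Ptgs2 had a large estimate in the mPFC that did not pass. It ran from 7.24 over 12.4 to 31.3 CPM without interaction and from 8.56 over 21.5 to 41.5 CPM after it, with 18 of 20 SocialInteraction mice above the NoInteraction median. The difference was 0.53 ± 0.18 (adjusted p = 0.073 by edgeR; adjusted p = 0.042 by DESeq2). Leaving out any 1 of 4 mice brought the adjusted p under 0.05, the lowest being 0.021 without Ctrl_Vehicle mouse 41, the NoInteraction mouse at 31.3 CPM. In the ACC the estimate was 0.34 ± 0.13 (adjusted p = 0.13) and in the vHipp, where Ptgs2 was most abundant, 0.27 ± 0.11 (adjusted p = 0.24).

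Rgs2 rose least of the 4 genes that passed. In the mPFC it ran from 37.4 over a median of 44.7 to 60.6 CPM without interaction and from 43.1 over 51.5 to 90.8 CPM after it, a rise of 0.22 ± 0.06 (16.8%, adjusted p = 0.022 by edgeR). In the ACC it ran from 33.6 over 38.3 to 45.4 CPM and from 37.4 over 42.3 to 83.4 CPM, a rise of 0.23 ± 0.06 (17.4%, adjusted p = 0.033). Both calls were lost when genes of all types and depths were tested (adjusted p = 0.053 and 0.065) and when runs of mouse numbers were the unit (0.071 and 0.13). The ACC call was also lost without either of ELA_SAFit2 SocialInteraction mice 63 and 79, with a fold that hardly moved (0.22 and 0.21, adjusted p = 0.053 and 0.054). Rgs2 was most abundant in the Nacc, and across the 41 mPFC libraries it followed the summed level of a list of striatal markers (among them Drd1, Drd2 and Adora2a; r = 0.71, permutation p = 1e-05, the smallest that 100000 resamples can give, adjusted 0.00018 over 960 relations; rho = 0.46, p = 0.0025, adjusted 0.016). Without the 2 libraries farthest from the median r was 0.44, and within the states it was 0.69 (NoInteraction) and 0.75 (SocialInteraction).

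In the mPFC, 2 libraries (1 per state) had striatal markers over 3 times the median, at 570 and 942 CPM against 81.6 to 327 CPM in the others. They held Rgs2 at 60.6 and 90.8 CPM, the highest of their states, against a median of 48.1 CPM in the others. Without them Rgs2 was 0.19 higher after interaction (adjusted p = 0.0035 by edgeR). In the ACC, 3 libraries (1 NoInteraction, 2 SocialInteraction) passed the same limit, at 536 to 925 CPM against 96.7 to 303 CPM. Without them the rise of Rgs2 was 0.15 in place of 0.23, and it passed (adjusted p = 0.022). Homer1, Crem and Tnfrsf12a also passed without these libraries in both regions (adjusted p at most 0.0275).

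**Figure D3:**
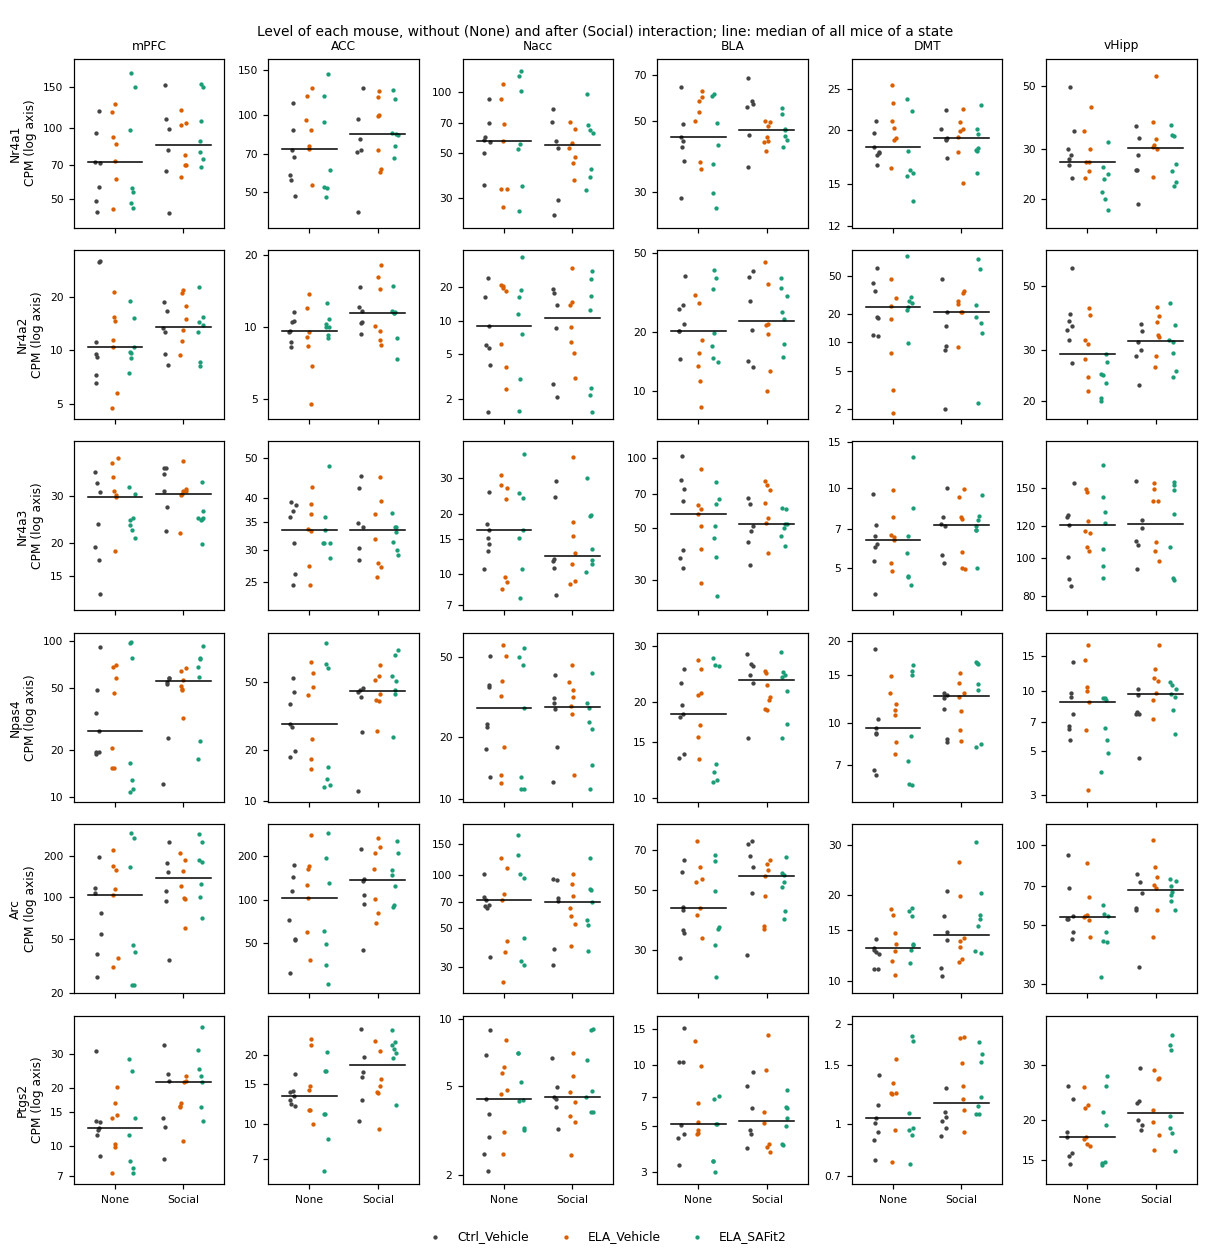
Level in CPM (log axis) of Nr4a1, Nr4a2, Nr4a3, Npas4, Arc and Ptgs2 (rows) in each region (columns), drawn as for the genes that rose, with 1 point per mouse and a line at the median of each state. The points of both states cover nearly the same range in most panels, as for Arc in the mPFC (22.9 to 299 CPM without and 34.9 to 292 CPM after interaction) and Nr4a2 in the DMT (1.82 to 80.8 and 2.01 to 74.8 CPM).

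In the Nacc, no member passed by edgeR or DESeq2, none had an unadjusted p under 0.05, and 4 of the 10 estimates were above 0. Homer1 ran from 85.4 over 173 to 259 CPM without interaction and from 129 over 184 to 232 CPM after it (0.06 ± 0.10). Without the 12 libraries that matched another mouse, no member passed either, but the estimates moved up: Tnfrsf12a to 0.23 (adjusted p = 0.7), Crem to 0.14 (adjusted p = 0.68) and Homer1 to 0.16 (adjusted p = 0.8). Over all genes, 0 passed with the 12 libraries and 4 without them.

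With the 6 regions of each mouse summed, so that the mouse was the unit, Homer1 (0.32 ± 0.04, adjusted p = 1.8e-05 by edgeR), Tnfrsf12a (0.43 ± 0.05, adjusted p = 2.5e-06) and Crem (0.19 ± 0.03, adjusted p = 1.75e-05) rose, and Rgs2 lay at the threshold (0.11 ± 0.04, adjusted p = 0.0498), where 8.56% of all genes passed (4.71% higher). Crem was so even across animals that 15 of 21 NoInteraction mice lay below every SocialInteraction mouse and 13 of 20 SocialInteraction mice above every NoInteraction mouse, although its rise was only 14.3%. Rgs2 passed in 12 of the 41 fits that left out 1 mouse. When counts were summed over the runs of mouse numbers, Homer1, Crem and Tnfrsf12a still passed in the mPFC and with regions summed, Homer1 and Crem in the ACC and Tnfrsf12a in the DMT, while no member passed in the BLA. The share of all genes that then passed was 1.18% for the mPFC, 2.14% with regions summed, 0.992% for the ACC, 0.0947% for the DMT and 0.0625% for the BLA.

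The response of a region was then set against the mean of the other 5 regions of the same mouse, which asks whether a rise belonged to 1 region more than to the rest. Homer1 rose more in the mPFC, by 0.35 ± 0.05 on the log2 scale (adjusted p = 0.00024 by limma), where 69 of 15173 genes passed (0.455%). Tnfrsf12a rose more in the DMT, by 0.41 ± 0.08 (adjusted p = 0.0099 by limma), where 10 of 15173 genes passed (0.0659%). No other member passed in any region. Homer1 in the ACC also had a higher estimate than the mean of its other 5 regions, which did not pass (0.26 ± 0.07, adjusted p = 0.50 by limma). This test does not set the mPFC against the ACC alone. Both differences held against the mean of 4 regions without the Nacc (0.32, adjusted p = 0.0011, and 0.38, adjusted p = 0.033 by limma). Without the 12 mice with a mismatched Nacc library the estimates were alike, at 0.31 and 0.44, but neither passed (adjusted p = 0.088 and 0.12), with 29 mice left.

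Within the groups, most estimates were above 0 in each. Of 60 tests per group, 45 were above 0 in Ctrl_Vehicle, 47 in ELA_Vehicle and 49 in ELA_SAFit2 mice, and 12, 13 and 17 had an unadjusted p under 0.05. The share of all genes under that unadjusted limit is not given here, so these counts do not show a difference between groups. After adjustment, 3, 0 and 4 passed (edgeR). In the mPFC of Ctrl_Vehicle mice Homer1 (0.55 ± 0.11, adjusted p = 0.028), Tnfrsf12a (0.67 ± 0.15, adjusted p = 0.0355) and Crem (0.40 ± 0.08, adjusted p = 0.028) rose, where 0.171% of all genes passed. In the mPFC of ELA_SAFit2 mice the same genes rose, Homer1 by 0.74 ± 0.11 (adjusted p = 0.00027), Tnfrsf12a by 0.54 ± 0.14 (adjusted p = 0.041) and Crem by 0.43 ± 0.08 (adjusted p = 0.0031), where 1.21% passed. In the mPFC of ELA_Vehicle mice 0.0443% of all genes passed, and no member. In the DMT of ELA_SAFit2 mice Tnfrsf12a rose by 0.85 ± 0.13 (adjusted p = 0.0015), where 0.0379% passed. With regions summed, Homer1 (0.38), Tnfrsf12a (0.49) and Crem (0.25) rose in ELA_SAFit2 mice (adjusted p = 0.0108, 0.00526 and 0.00526), where 1.61% passed. With the 5 regions other than the Nacc summed, Tnfrsf12a (0.49, adjusted p = 0.027) and Crem (0.25, adjusted p = 0.029) also rose in Ctrl_Vehicle mice and Tnfrsf12a (0.43, adjusted p = 0.034) in ELA_Vehicle mice. In that setting 0.122% of all genes passed in Ctrl_Vehicle and 0.244% in ELA_Vehicle mice. Where no member passed within a group, the share of all genes was 0.00631% for Ctrl_Vehicle in the DMT, 0.0191% in the vHipp and 0.0288% with regions summed, 0.0191% for ELA_Vehicle in the ACC and 0.023% with regions summed, 0.07% for ELA_SAFit2 in the ACC and 0.0318% in the vHipp, and 0% elsewhere. With only the mice of that group in the fit, the Ctrl_Vehicle calls in the mPFC and the ELA_SAFit2 call in the DMT were lost.

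The values behind these calls lay close together across groups. Homer1 in the mPFC went from a median of 175 CPM (158 to 250, 7 mice) to 263 CPM (243 to 316, 6 mice) in Ctrl_Vehicle, from 194 CPM (153 to 258, 7 mice) to 263 CPM (194 to 317, 7 mice) in ELA_Vehicle and from 171 CPM (150 to 190, 7 mice) to 278 CPM (227 to 331, 7 mice) in ELA_SAFit2 mice. In ELA_SAFit2 mice the 2 states did not overlap, whereas in the other groups they did. ELA_Vehicle mice had the lowest estimates of Homer1 (0.45 ± 0.11), Crem (0.21 ± 0.08) and Tnfrsf12a (0.41 ± 0.14) in the mPFC, none past the threshold (adjusted p = 0.10, 0.35 and 0.28 by edgeR). The difference between groups was tested directly and did not pass for any of them. The response of Homer1 in the mPFC differed by 0.29 ± 0.16 between ELA_SAFit2 and ELA_Vehicle mice (adjusted p = 1) and that of Crem by 0.22 ± 0.11 (adjusted p = 1).

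**Figure D4:**
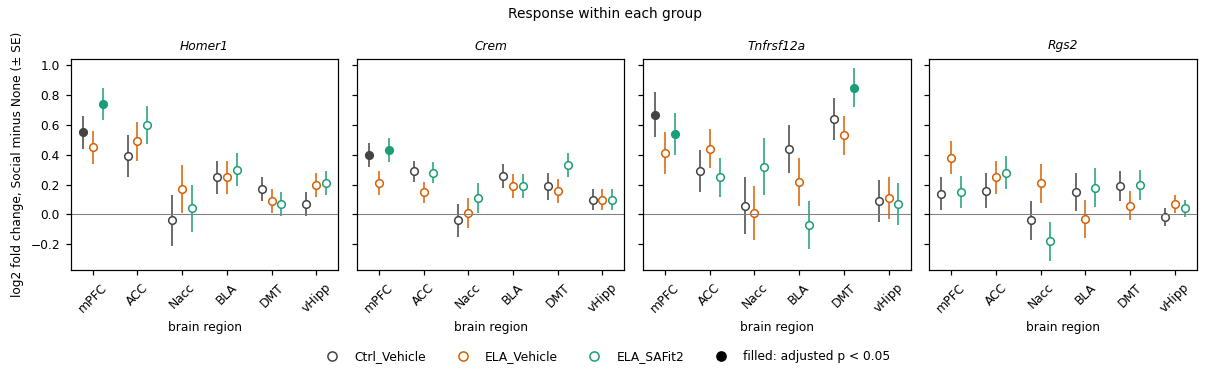
Log2 fold change after social interaction (± SE) of Homer1, Crem, Tnfrsf12a and Rgs2 in each region, separately for the 3 groups, with filled circles for an adjusted p under 0.05. The filled circles lie in the mPFC (Ctrl_Vehicle and ELA_SAFit2) and in the DMT (ELA_SAFit2, 0.85).

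Over all members, 0 of 180 tests of a difference in response between groups passed, and 4 had an unadjusted p under 0.05 (edgeR). Over all genes such differences passed between ELA_SAFit2 and ELA_Vehicle mice, in the ACC (0.0318%), Nacc (0.0315%), DMT (0.0379%) and vHipp (0.0382%), and for no other region or pair of groups. Of 360 comparisons of group with group within an interaction state, 0 passed and 13 had an unadjusted p under 0.05, where at most 0.00636% of all genes passed. The smallest p of a member belonged to Nr4a2 in the vHipp. Without interaction it ran from 27.1 over a median of 36.3 to 58 CPM in Ctrl_Vehicle, from 21.7 over 31.5 to 42 CPM in ELA_Vehicle and from 20 over 24.7 to 29.2 CPM in ELA_SAFit2 mice. The ELA_SAFit2 mice overlapped the lower end of the Ctrl_Vehicle mice, and the difference was -0.66 ± 0.15 (adjusted p = 0.78). After interaction the medians were 31, 34 and 32.2 CPM. The response of Nr4a2 accordingly differed by 0.71 ± 0.21 between ELA_SAFit2 and Ctrl_Vehicle mice (adjusted p = 0.98), which did not pass over all genes.

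How much mice of 1 group differed set the members apart. Within groups, the SD of log2 CPM in the mPFC was 1.07 for Arc and 1.0 for Npas4, against a median of 0.15 over all genes tested there, so that Arc in the highest library was 13.1 times that in the lowest. Crem had an SD of 0.15 there, equal to that median, and Homer1 one of 0.21. In the mPFC the 4 members that passed had SDs of 0.15 to 0.25 and the other 6 had SDs of 0.35 to 1.07. Arc and Npas4 had estimates of 0.42 and 0.30 with SEs of 0.30 and 0.29. Nr4a2 had the widest spread of any member, 1.42 in the Nacc and 1.28 in the DMT.

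In the DMT, Nr4a2 followed the habenular markers. It ran from 1.82 to 80.8 CPM across NoInteraction mice, and the habenular markers Pou4f1, Gpr151 and Tac2 summed to 3.77 to 178 CPM in the same libraries. Over all 41 mice Nr4a2 correlated with that sum at r = 0.99 and rho = 0.99 (permutation p = 1e-05 for each, adjusted 0.00018), with r = 0.99 within each state and without the 2 farthest mice. The habenula borders this part of the thalamus. In the Nacc, Nr4a2 correlated with summed cortical markers at r = 0.81 (rho = 0.80, permutation p = 1e-05, adjusted 0.00018, r = 0.79 without the 2 farthest). In the BLA, Rgs2 correlated with inhibitory neuron markers at r = 0.92 (rho = 0.93, permutation p = 1e-05, adjusted 0.00018), and in the vHipp Nr4a3 did so with excitatory neuron markers at r = 0.88 (rho = 0.90, permutation p = 1e-05, adjusted 0.00018, within states 0.86 and 0.90). The part of these markers in the members' differences between states was not tested beyond the fits without the striatal libraries.

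The same mouse could be read in 2 cortical regions. The deviation of each mouse from its group mean in the mPFC and in the ACC correlated across the 41 mice at r = 0.95 for Arc (rho = 0.95), 0.95 for Npas4 (rho = 0.95) and 0.94 for Nr4a1 (rho = 0.94), each with a permutation p of 1e-05 and an adjusted p of 2e-05 over 10 genes. For these genes r was 0.94 to 0.97 without the 2 farthest mice, and between 0.87 and 0.98 within each state. A mouse with high Arc in 1 region thus had high Arc in the other, in punches sequenced as separate libraries. For Ptgs2 r was 0.74 (rho = 0.76) and for Homer1 0.72 (rho = 0.74), both with a permutation p of 1e-05. For Crem it was 0.32 (rho = 0.40, permutation p = 0.042, adjusted 0.042) and 0.50 without the 2 farthest mice, with 0.62 in NoInteraction and 0.02 in SocialInteraction mice, and for Tnfrsf12a 0.33 (rho = 0.33, permutation p = 0.037, adjusted 0.041). The r of 0.59 for Rgs2 (permutation p = 0.0015, rho = 0.36, p = 0.021) rested on the 2 farthest mice, without which it was 0.29. Nr4a2 stood at 0.58 (rho = 0.60) and Nr4a3 at 0.51 (rho = 0.53), with a permutation p of 7e-05 and 0.00071.

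**Figure D5:**
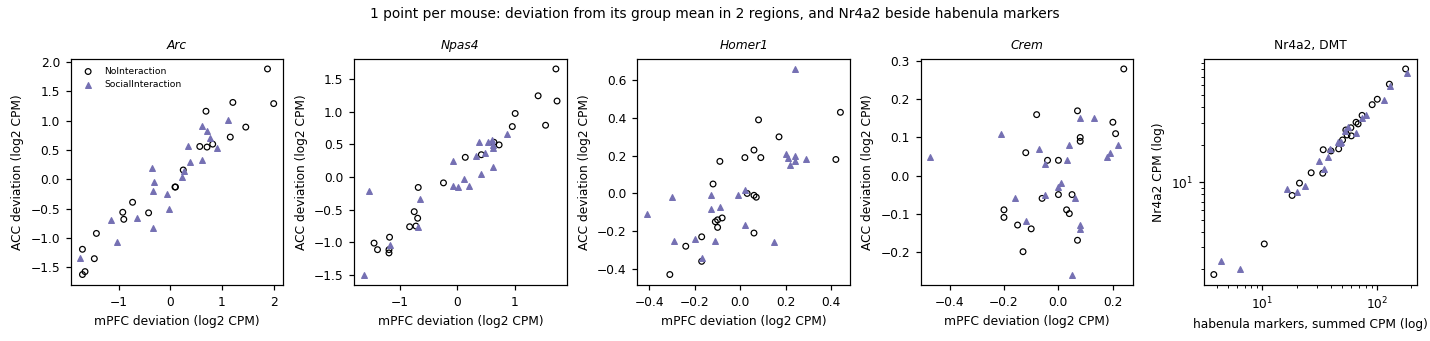
The first 4 panels plot, for Arc, Npas4, Homer1 and Crem, the deviation of each mouse from its group mean (log2 CPM) in the mPFC (horizontal axis) and in the ACC (vertical axis), with open circles for NoInteraction and filled triangles for SocialInteraction mice, and the last panel plots Nr4a2 in the DMT against the summed CPM of the habenular markers on log axes. The points of Arc and Npas4 lie along a line (r = 0.95), those of Crem lie more widely (r = 0.32), and those of Nr4a2 follow the markers (r = 0.99).

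Pairs of members varied together to different degrees, given here as a description averaged over the 6 regions with 41 libraries in each. Nr4a1 and Arc had the highest mean correlation of deviations (0.75), followed by Nr4a1 and Npas4 (0.67), Npas4 and Arc (0.64) and Crem and Homer1 (0.45). The 2 genes that rose most, Homer1 and Tnfrsf12a, had a mean correlation of 0.09. Of 15141 other genes tested in all regions, the 10 most like the mean of the members were Fosb (mean r 0.77), Dusp6 (0.72), Fos (0.71), Egr1 (0.71), Dusp1 (0.65), Junb (0.65), Ier2 (0.55), Trib1 (0.55), Gpr3 (0.55) and Egr4 (0.54). Each of these but Gpr3, a receptor that raises cAMP, was on the list of other activity genes. The members themselves followed the shared pattern unevenly. Their mean r was 0.62 for Nr4a1, 0.60 for Arc, 0.56 for Npas4, 0.46 for Ptgs2 and 0.32 for Nr4a3. It was 0.18 for Nr4a2, and for the genes that rose 0.35 (Homer1), 0.31 (Crem), 0.22 (Tnfrsf12a) and 0.10 (Rgs2).

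The list of other activity genes held 31 genes. It too was chosen with earlier results of these data known, so its counts are a description. Of those tested, 10 rose in each cortical region, 4 in the BLA, 5 of 30 in the DMT, 2 in the vHipp, 0 in the Nacc and 9 with regions summed, and none fell. Their median log2 fold change was 0.25 for mPFC, 0.20 for ACC, 0.09 for BLA, 0.09 for DMT, 0.12 for vHipp and -0.01 for Nacc, against 0 over all genes in each region. In the mPFC, Nptx2, a secreted pentraxin that gathers AMPA receptors, went from a median of 45.1 to 81.6 CPM (0.88 ± 0.08, adjusted p = 1.6e-09 by edgeR), and Egr3, an immediate early transcription factor, from 124 to 236 CPM (0.89 ± 0.10, adjusted p = 1.8e-07). Inhba, which encodes an activin subunit (0.87 ± 0.11), the neurotrophin gene Bdnf (0.64 ± 0.08) and the prohormone convertase gene Pcsk1 (0.29 ± 0.05) also rose there. In the ACC, Nptx2 (0.57 ± 0.07), Egr3 (0.63 ± 0.08), Inhba (0.57 ± 0.08), Fosb (0.67 ± 0.12) and Vgf, a secreted neuropeptide precursor (0.31 ± 0.05), rose. In the DMT, where Tnfrsf12a led the members, Fosb rose by 0.81 ± 0.12 (adjusted p = 0.000246), Egr3 by 0.70 ± 0.17, Bdnf by 0.44 ± 0.09, Fosl2 by 0.43 ± 0.09 and Vgf by 0.24 ± 0.06. In the BLA Nptx2 rose by 0.56 ± 0.08, Inhba by 0.68 ± 0.15, Fosb by 0.44 ± 0.09 and Egr3 by 0.28 ± 0.05, while Trib1 (0.21 ± 0.06) did not pass, and in the vHipp, where no member passed, Fosb (0.45 ± 0.07) and Inhba (0.46 ± 0.08) did, while Bdnf (0.15 ± 0.05), Csrnp1 (0.26 ± 0.08) and Dusp6 (0.22 ± 0.07) did not. In the Nacc the smallest p belonged to Vgf (0.11 ± 0.07), Nptx2 (0.29 ± 0.18), Pcsk1 (0.16 ± 0.10), Dusp5 (-0.14 ± 0.10) and Inhba (0.17 ± 0.12), none past the threshold. With regions summed, Nptx2 (0.45 ± 0.04), Egr3 (0.44 ± 0.05), Inhba (0.49 ± 0.05), Bdnf (0.34 ± 0.05) and Vgf (0.23 ± 0.03) had the smallest p and rose.

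Of 30 partners and relatives of the members (heterodimer partners, paralogs, ligands, receptors and scaffolds), few moved. Npas2, a relative of Npas4 and of the clock, rose by 0.12 ± 0.04 in the mPFC and 0.19 ± 0.04 in the BLA (adjusted p = 0.04 and 0.011 by edgeR), Creb1 rose by 0.09 ± 0.02 in the BLA (adjusted p = 0.042), and Ptger1, a receptor for prostaglandin E2, rose by 0.27 ± 0.08 in the ACC (adjusted p = 0.034) and by 0.18 ± 0.05 with regions summed (adjusted p = 0.013). Npas3 fell by 0.09 with regions summed (adjusted p = 0.048). The list's median was within 0.03 of 0 in every region.

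Without interaction, the order of regions differed between members, with Nr4a1 and Homer1 sharing 1 order. Nr4a3, Nr4a2 and Ptgs2 were highest in the vHipp, Rgs2 in the Nacc, Tnfrsf12a in the DMT, Npas4 in the mPFC, and Arc, Crem, Homer1 and Nr4a1 in the ACC. Of the 50 steps between neighbours in these orders, 32 passed a test of the mean difference within mice (sign-flip permutation test over 21 mice, adjusted p under 0.05). A step that passed could be smaller than its SD between mice, as for Nr4a1 from the mPFC to the Nacc (0.43, SD 0.56). Nr4a3 fell in 5 separate steps, from 6.91 ± 0.28 (mean log2 CPM, SD) in the vHipp over 5.70 ± 0.54 in the BLA, 5.09 ± 0.25 in the ACC, 4.76 ± 0.44 in the mPFC and 4.05 ± 0.68 in the Nacc to 2.66 ± 0.42 in the DMT. Rgs2 fell in 5 separate steps too, from 6.66 ± 0.34 in the Nacc to 4.51 ± 0.19 in the DMT. Tnfrsf12a stood 1.02 above its next region in the DMT in 21 of 21 mice, while its levels in the mPFC, Nacc, vHipp and BLA were not separated from step to step. The cortical regions were not separated for Nr4a1, Nr4a2, Npas4, Arc, Homer1 and Ptgs2, with differences between mPFC and ACC of 0.24 or less. Of these 10 orders, 7 stayed the same without the mice whose Nacc library matched another mouse, the exceptions being Nr4a1, Crem and Tnfrsf12a.

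Levels per kilobase of gene model set different genes roughly side by side. The length counts the exons of all forms of a gene, so genes with several forms, such as Homer1 and Crem, can rank too low. On this scale Arc led in the mPFC and the ACC (medians of 34.4 and 34.3 CPM per kb), ahead of Nr4a1 (20.9 and 21.4) and Homer1 (14.8 and 15.8). Rgs2 led in the Nacc (29.2), the BLA (20.2) and the DMT (6.17), and Nr4a3 led in the vHipp (20.6), ahead of Arc (17.7). Tnfrsf12a was the lowest member in 5 regions, between 0.937 and 1.23 CPM per kb, and ranked higher in the DMT, at 2.63. Ptgs2 was the lowest there, at 0.222. Tnfrsf12a, the member with the largest rise, was thus the scarcest of the 10 in 5 regions, but not in the DMT, where that rise was found.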

How the data were processed

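The deposited table held estimated counts per gene and library, which the authors made with salmon as the table's name says. The submitters' processing notes name GRCm39 (mm39), STAR and DESeq2, with versions not given in the sources used here. Estimated counts were rounded to whole numbers (12.12% of values were not whole). Libraries totalled 20804247 to 43351424. Genes entered a region's fit if they code for protein, reached 100 counts over its libraries and were counted in 6 or more of them. Types came from GENCODE M21 (52073 of 56691 identifiers) or, by symbol, from RefSeq (978), and 3640 untyped genes were left out. edgeR 4.0.16 (R 4.3.3, TMM scaling, quasi-likelihood test) was fitted in each region with 6 groups of mice, and p-values were adjusted over all genes tested (Benjamini-Hochberg, threshold 0.05). The standard error was the fold change divided by the root of F. A response was also compared between regions within mice with limma 3.58.1, pairing libraries by the mouse number that all regions share. DESeq2 1.42.0 was an alternative. Mouse levels used log2 CPM with a prior count of 2, and relations across mice used permutation tests (100000 resamples, two-sided). Per-kilobase levels used gene model lengths from GENCODE M21. Named were all members, the 5 other activity genes of smallest p per region, every partner that passed, and the 10 genes most like the members' mean. The members and gene lists were chosen with earlier results of these data known. Fits without libraries heavy in striatal markers, against 4 regions without the Nacc, and region orders without the mismatched mice were added after seeing the data. On simulated data modelled on the mPFC comparison (15812 genes), 93% of 100 genes changed by 0.5 log2 and 100% of 100 changed by 1.0 were found, with 11 false calls in all. The changed genes were drawn at random and the mice were simulated as independent. These shares need not hold for members with a wider spread than most genes, such as Arc and Npas4, or for mice that share a run. Each mouse is a separate animal, and each library holds its bilateral punches. Some genes of the marker and partner lists are not reported by name here.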

Additional observations from a re-analysis of the deposited data

Results flagged for a closer look

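Within single groups of 6 or 7 mice, 16 of 360 sets of values (4.44%) held a mouse far from the others by Dixon's test, where chance flags about 1 in 20. Of these, 8 were highest and 8 lowest values. In the mPFC they were Nr4a3 at 18.6 CPM (lowest of the ELA_Vehicle NoInteraction mice), Ptgs2 at 31.3 CPM (highest of the Ctrl_Vehicle NoInteraction mice) and Rgs2 at 90.8 CPM (highest of the ELA_Vehicle SocialInteraction mice). In the ACC they were Ptgs2 at 12.1 CPM (lowest, ELA_SAFit2, SocialInteraction) and Rgs2 at 53 CPM (highest, Ctrl_Vehicle, SocialInteraction) and at 83.4 CPM (highest, ELA_Vehicle, SocialInteraction). In the Nacc, Arc stood low at 33.9 CPM in a Ctrl_Vehicle NoInteraction mouse. In the BLA they were Npas4 at 15.4 CPM (lowest, Ctrl_Vehicle, SocialInteraction), Crem at 9.73 CPM (highest, ELA_SAFit2, SocialInteraction) and Homer1 at 192 CPM (highest, ELA_Vehicle, NoInteraction) and at 263 CPM (highest, ELA_Vehicle, SocialInteraction). In the DMT they were Nr4a2 at 8.9 CPM (lowest, ELA_Vehicle, SocialInteraction), Homer1 at 29.6 CPM (lowest, Ctrl_Vehicle, NoInteraction) and Rgs2 at 25.9 CPM (highest, Ctrl_Vehicle, NoInteraction). In the vHipp they were Npas4 at 4.64 CPM (lowest, Ctrl_Vehicle, SocialInteraction) and Rgs2 at 20.2 CPM (lowest, ELA_SAFit2, SocialInteraction).

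By the test of the difference between regions, the response of Homer1 in the mPFC exceeded the mean response of the other 5 regions by 0.35 (log2). That of Tnfrsf12a in the DMT exceeded the mean of its other 5 regions by 0.41.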

How the results depend on the processing

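Of 536 values of single members under an alternative, 502 kept their direction and their side of the threshold, 13 fell below it, 6 passed newly and 15 changed sign, all 15 of them values that had not passed. With runs of mouse numbers as the unit, 2 members passed in the ACC, 0 in the BLA and 1 in the DMT, where 0.992%, 0.0625% and 0.0947% of all genes passed. In the BLA the genes of any kind that passed fell from 239 to 10. When each of 41 mice was left out in turn, 1 to 2 members passed in the BLA and 0 to 1 in the vHipp, and by DESeq2 1 passed in the vHipp (2.22% of all genes). With only its own group in the fit, 0 members passed for Ctrl_Vehicle in the mPFC, 1 for ELA_SAFit2 in the ACC and 0 for ELA_SAFit2 in the DMT, where 0.00632%, 0.204% and 0% of all genes passed. With 5 regions summed without the Nacc, 2 passed in Ctrl_Vehicle (0.122% of all genes) and 1 in ELA_Vehicle mice (0.244%). Without the mice whose Nacc library matched another mouse, 0 passed in the comparison of the mPFC, and 0 in that of the DMT, with the other regions. The shares of all genes there were 0.00659% and 0.033%, and fewer mice entered that fit. Without the replicate block, that is without pairing the regions of a mouse, Homer1 (adjusted p = 0.0104 by limma) and Tnfrsf12a (adjusted p = 0.0383 by limma) still passed. Changed signs (log2) were, with runs as the unit, Arc 0.01 and Rgs2 0.01 in the Nacc and Nr4a3 0.04 in the BLA; without mismatched libraries in the Nacc, Nr4a2 0.09, Nr4a3 0.07, Arc 0.04 and Rgs2 0.08; and with 1 mouse left out, Nr4a3 in the ACC (-0.02 to 0.04), Nr4a2 (-0.19 to 0.12), Ptgs2 (0.0 to 0.14) and Rgs2 (-0.03 to 0.03) in the Nacc, Nr4a3 (-0.08 to 0.02) and Ptgs2 (-0.17 to 0.02) in the BLA, Nr4a2 in the DMT (-0.34 to 0.0) and Nr4a1 with regions summed (-0.01 to 0.09). The cause of these changes was not tested. Leaving out ELA_SAFit2 mouse 15 brought Rgs2 in the DMT to an adjusted p of 0.0495 by edgeR.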
